A study of Homo sapiens with 4 samples.

Results

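The genes described here make cholesterol and fatty acids. They were 30 named genes, and each was read from the probe sets whose platform annotation gives only its symbol, using the brightest such probe set across the 4 arrays. A probe set is the group of array probes summarised into 1 value. Of the 30 genes, 29 had such a probe set and 29 lay above the level used to leave out dim genes, among 14970 tested genes. FDFT1, the enzyme that makes squalene, was not analysed here. The members fell into a sterol arm of 16 measured enzymes, a fatty acid arm of 9 enzymes and 4 regulators.

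RNA was measured in MTAC-P, a human lung cancer line that the labels call resistant and derive from mild TKI (tyrosine kinase inhibitor) exposure, and in PC9, a human lung cancer line known for its EGFR-activating mutation and its sensitivity to EGFR inhibitors. There were 4 arrays, 2 of each line, with values on a log2 scale. Both lines grew in DMEM with fetal bovine serum, and neither is labelled with any other genetic change or agent. They give no inhibitor, dose, parent line or clone number for MTAC-P, and do not say whether drug was present at collection. Nor do they say whether duplicates were separate cultures, so p-values measure only the spread between these arrays, which may be technical.

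The arrays ran close together, with medians over all probe sets of 4.87 and 4.88 in MTAC-P and 4.87 and 4.85 in PC9. The epithelial markers EPCAM, KRT8, KRT18, KRT19 and CDH1 lay between 10.28 and 14.42 on every array. The lung lineage markers NKX2-1, NAPSA and SFTPB lay between 4.59 and 5.22, near the dim value of 4.14, in both lines. Among markers of other cell types, the blood marker CD68 lay between 8.90 and 9.36 and the blood marker CD3E between 4.41 and 5.13. The blood marker PTPRC and the fibroblast marker COL3A1 were not among the tested genes. The tested markers of fibroblasts, endothelium, liver and fat cells lay at 5.95 or less. Fewer expressing cells and less RNA per cell cannot be told apart in such bulk samples.

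Cells build cholesterol from acetyl-CoA through mevalonate, isoprenoids, squalene and lanosterol, and build fatty acids from the same acetyl-CoA through malonyl-CoA. Both routes are switched on by the SREBP transcription factors, membrane proteins that SCAP escorts from the endoplasmic reticulum to the Golgi when sterols are low. INSIG1 holds SCAP back when sterols are plentiful and is itself a sensitive SREBP target. SREBF2 is best known for the sterol genes and SREBF1 for the fatty acid genes. In cancer cells these pathways supply membrane lipid for growth.

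The promoters of 4 members are shown because the values below turn on them: INSIG1 and HMGCS1 differed most between the PC9 duplicates, SREBF2 had the largest line difference of the regulators, and SC5D was lower in MTAC-P on every probe set. The sequences are RefSeq's for GRCh38.p14, from 250 bases before to 50 after the gene start, 5′ to 3′ on the gene's strand, and of several starts the first listed was taken. Capitals mark the CCAAT box, the site of the factor NF-Y that works beside SREBP, searched as CCAAT on both strands so that its other strand reads ATTGG, and the sterol regulatory element, searched as TCACNCCAC on both strands. In these 4 sequences the motifs do not overlap.
INSIG1, chr7:155297628-155297927, plus strand: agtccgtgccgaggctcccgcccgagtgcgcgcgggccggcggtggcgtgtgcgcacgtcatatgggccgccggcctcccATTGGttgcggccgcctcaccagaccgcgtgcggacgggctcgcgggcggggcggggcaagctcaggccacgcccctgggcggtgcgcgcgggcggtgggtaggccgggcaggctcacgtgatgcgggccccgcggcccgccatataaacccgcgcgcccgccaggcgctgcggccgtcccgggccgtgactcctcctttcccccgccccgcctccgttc
HMGCS1, chr5:43313363-43313662, minus strand: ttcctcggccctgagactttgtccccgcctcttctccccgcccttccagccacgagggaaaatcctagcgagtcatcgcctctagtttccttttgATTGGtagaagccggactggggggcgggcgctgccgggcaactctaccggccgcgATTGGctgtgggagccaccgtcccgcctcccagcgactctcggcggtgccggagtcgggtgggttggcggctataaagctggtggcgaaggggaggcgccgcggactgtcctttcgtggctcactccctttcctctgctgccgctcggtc
SREBF2, chr22:41832855-41833154, plus strand: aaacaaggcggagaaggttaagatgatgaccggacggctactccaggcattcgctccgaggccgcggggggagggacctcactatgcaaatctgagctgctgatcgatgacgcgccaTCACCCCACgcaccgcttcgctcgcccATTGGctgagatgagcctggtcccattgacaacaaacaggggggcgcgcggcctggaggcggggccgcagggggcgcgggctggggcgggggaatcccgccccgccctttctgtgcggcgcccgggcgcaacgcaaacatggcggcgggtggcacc
SC5D, chr11:121292521-121292820, plus strand: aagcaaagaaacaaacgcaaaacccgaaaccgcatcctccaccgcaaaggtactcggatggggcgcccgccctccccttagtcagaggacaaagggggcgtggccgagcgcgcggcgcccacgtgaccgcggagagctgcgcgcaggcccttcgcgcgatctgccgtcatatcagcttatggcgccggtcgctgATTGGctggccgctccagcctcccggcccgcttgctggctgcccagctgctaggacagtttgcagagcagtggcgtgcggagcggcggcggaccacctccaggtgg

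HMGCS1 had 2 CCAAT boxes in this window, and INSIG1, SREBF2 and SC5D had 1 each. Of the 26 members with a promoter in the table, 20 held a CCAAT box at a listed start, or 76.9%, against 42.3% of the 12036 tested genes with a promoter and 34.6% of all 35116 promoters. The sterol arm had the box in 12 of 14 genes, the fatty acid arm in 6 of 8 and the regulators in 2 of 4. The sterol regulatory element as spelled was found in SREBF2, which makes 1 of 26 members, against 1.52% of the tested genes and 1.13% of all promoters. A match describes the letters in the window, and no binding was measured here.

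Differences in MTAC-P were small and went both ways: 19 of the 29 members had a higher mean in MTAC-P and 10 a lower one, where 53.8% of all tested genes were higher. The median log2 difference, MTAC-P minus PC9, was 0.23 in the sterol arm, 0.13 in the fatty acid arm and 0.26 in the regulators, against 0.031 over all tested genes. By limma with Benjamini-Hochberg adjustment over all 14970 genes, 0 of 29 members passed 0.05, their lowest adjusted p being 0.205. In all, 3 genes passed, or 0.02%. At an unadjusted p under 0.05 there were 5 members, CYP51A1, TM7SF2, FDPS, SREBF2 and ACSS2, where 18.9% of all tested genes stood there.

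For 16 of the 29 members the MTAC-P arrays lay apart from the PC9 arrays, 11 of them higher and 5 lower in MTAC-P. Over all tested genes, this held for 53.2%, with 28.3% higher and 24.9% lower, so the members' share was near that of all genes. For 11 members the line difference was larger than the gap between the duplicates of either line, as it was for 38.5% of all tested genes. The median of the sterol arm was 0.043 without MTAC-P replicate 2 and 0.042 without PC9 replicate 2, and that of the fatty acid arm was -0.095 without MTAC-P replicate 2. Leaving out 1 array turned the sign of 5 members and moved another 15 by over 1.5 times. These included EBP, between 0.12 and 0.38, NSDHL, between 0.16 and 0.49, FASN, between 0.018 and 0.34, and FADS2, between 0.033 and 0.52.

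**Figure D1:**
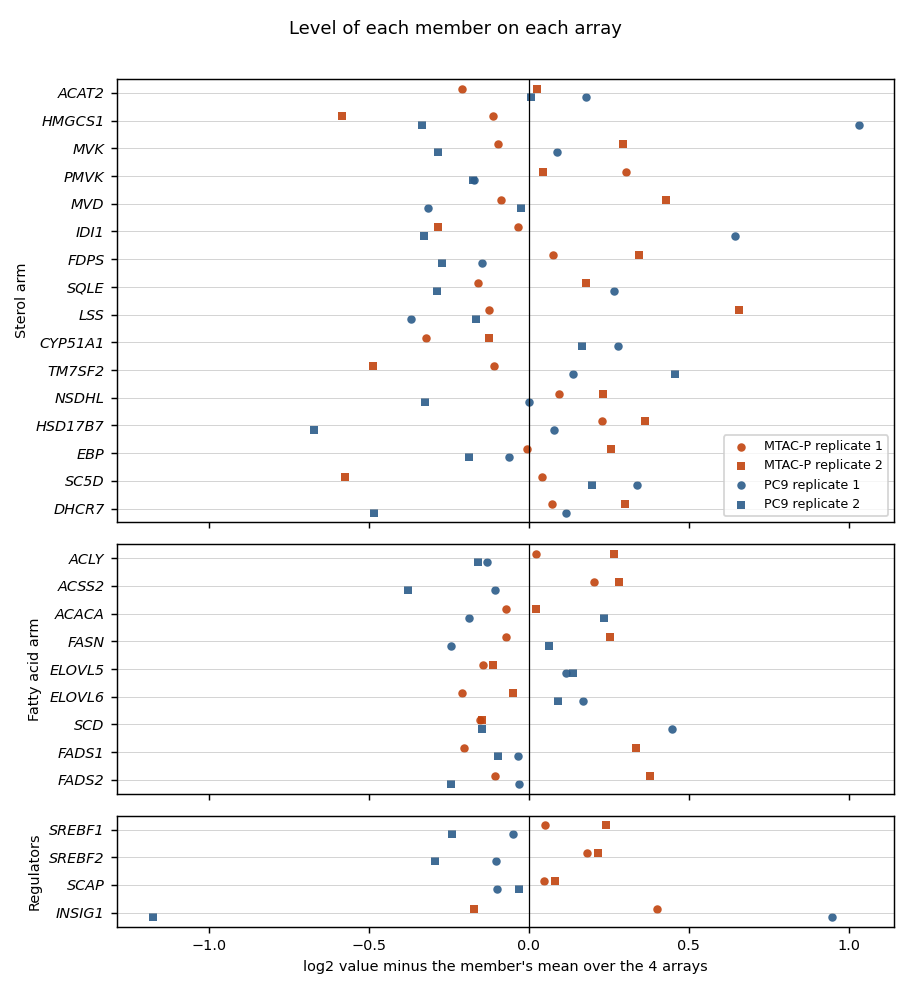
Level of each of the 29 members on each array, as the log2 value minus that member's mean over the 4 arrays, with MTAC-P in orange and PC9 in blue, circles for replicate 1 and squares for replicate 2. INSIG1 and HMGCS1 show the widest spread between the PC9 arrays, and SREBF1, SREBF2 and SCAP have both MTAC-P arrays to the right of both PC9 arrays.

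The regulators all had higher means in MTAC-P, by small amounts. SREBF2, which encodes the main factor of the sterol genes, had log2 values of 6.90 and 6.94 in MTAC-P and 6.62 and 6.43 in PC9, a 1.32-fold difference. Its arrays did not overlap, with a log2 difference of 0.40 (SE 0.16, limma adjusted p = 0.255), but its other probe sets differed by 0.14 and -0.033. SREBF1, the counterpart for fatty acid genes, had 8.47 and 8.66 in MTAC-P and 8.37 and 8.18 in PC9. Its difference of 0.29 (SE 0.17) had the same sign on its 3 probe sets. SCAP, the escort protein, had 8.91 and 8.94 in MTAC-P and 8.76 and 8.83 in PC9, so the lines did not overlap although the difference was 0.13 (SE 0.15).

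INSIG1, the sterol-sensing retention protein, had log2 values of 9.23 and 8.66 in MTAC-P and 9.78 and 7.65 in PC9. The PC9 arrays enclosed both MTAC-P arrays, so the line difference of 0.23 had an interval from -1.30 to 1.76. It was -0.84 without PC9 replicate 2, -0.058 without MTAC-P replicate 1 and 1.29 without PC9 replicate 1. No direction can be given for INSIG1 between the lines.

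In the mevalonate and isoprenoid part of the sterol arm, 4 of 7 enzymes had higher means in MTAC-P and 3 lower. FDPS, which makes farnesyl diphosphate, had log2 values of 10.87 and 11.14 in MTAC-P and 10.65 and 10.52 in PC9. PMVK, the phosphomevalonate kinase, had 9.81 and 9.55 in MTAC-P and 9.33 and 9.33 in PC9. Both were higher on every MTAC-P array, by log2 differences of 0.42 (SE 0.17) for FDPS and 0.35 (SE 0.17) for PMVK, and both probe sets of FDPS and all 3 of PMVK had that sign.

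HMGCS1, which joins acetyl-CoA and acetoacetyl-CoA into the precursor of mevalonate, had log2 values of 8.51 and 8.03 in MTAC-P and 9.65 and 8.28 in PC9. Its difference of -0.70 (SE 0.43) had the largest size of the 29 members, yet the lines overlapped. Without PC9 replicate 1 HMGCS1 differed by -0.014 and without PC9 replicate 2 by -1.38, and its other probe set differed by -0.16. IDI1, the isomerase that activates isoprenoid units, had 8.65 and 8.40 in MTAC-P and 9.33 and 8.36 in PC9. For IDI1 too, PC9 replicate 1 stood above the other 3 arrays, and the difference of -0.32 (SE 0.32) became 0.17 without it.

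MVD, the decarboxylase that yields the first isoprenoid unit, had 6.48 and 6.998 in MTAC-P and 6.25 and 6.54 in PC9, a difference of 0.34 (SE 0.22) with overlapping arrays. MVK, the mevalonate kinase, differed by 0.20 (SE 0.21). Without MTAC-P replicate 2, MVD differed by 0.082 and MVK by 0.0042. ACAT2, the cytosolic thiolase that makes acetoacetyl-CoA, differed by -0.18 (SE 0.17), and its 3 probe sets lay between -0.19 and -0.16. The lines overlapped for MVK and ACAT2 as well.

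In the squalene and lanosterol steps, SQLE, the oxygen-dependent epoxidase, had nearly the same mean in both lines. Its log2 values were 8.50 and 8.84 in MTAC-P and 8.92 and 8.37 in PC9, and its difference was 0.021 with an interval from -0.55 to 0.59. LSS, which closes the squalene chain into lanosterol, had 5.34 and 6.12 in MTAC-P and 5.09 and 5.29 in PC9. LSS was higher on both MTAC-P arrays by 0.53 (SE 0.27), its MTAC-P duplicates were 0.78 apart, and the difference was 0.14 without MTAC-P replicate 2. Its second probe set above the dim value differed by 0.86.

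Between lanosterol and cholesterol, the arrays of the lines were apart for 6 of 7 enzymes, 3 higher and 3 lower in MTAC-P, where they were apart for 53.2% of all tested genes. The 3 lower ones were CYP51A1, TM7SF2 and SC5D. SC5D, a desaturase late in the route, had log2 values of 8.60 and 7.99 in MTAC-P and 8.90 and 8.76 in PC9, a difference of -0.53 (SE 0.23). All 4 probe sets of SC5D differed in the same direction, between -0.63 and -0.46. On the brightest, leaving out MTAC-P replicate 2 gave -0.23 and leaving out replicate 1 gave -0.84. TM7SF2, a sterol reductase, had 7.19 and 6.81 in MTAC-P and 7.44 and 7.76 in PC9, a 1.51-fold difference (-0.60, SE 0.20, limma adjusted p = 0.205). That rests on its brightest probe set, because the other 4 differed by -0.12 to 0.0055. CYP51A1, the lanosterol demethylase, had 9.49 and 9.68 in MTAC-P and 10.09 and 9.97 in PC9, a difference of -0.45 (SE 0.16). The other probe set of CYP51A1 differed by 0.12, in the opposite direction.

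The 3 higher enzymes after lanosterol were HSD17B7, NSDHL and EBP. HSD17B7, a sterol ketone reductase, had log2 values of 6.37 and 6.50 in MTAC-P and 6.22 and 5.47 in PC9. Its difference of 0.59 (SE 0.26) was the largest upward one of the 29 members, but was 0.22 without PC9 replicate 2. HSD17B7 was read from a probe set whose name ends in _x_at, the mark of probes that may match other sequences, and RefSeq lists a transcribed pseudogene, HSD17B7P2, so its level is uncertain. NSDHL, which removes a sterol carboxyl group, had 10.03 and 10.16 in MTAC-P and 9.93 and 9.61 in PC9, a difference of 0.33 (SE 0.18). EBP, the sterol isomerase, had 10.63 and 10.89 in MTAC-P and 10.57 and 10.44 in PC9, a difference of 0.25 (SE 0.17). DHCR7, the last reductase of this route, had 9.63 and 9.86 in MTAC-P and 9.68 and 9.08 in PC9. Its arrays overlapped, with a difference of 0.37 (SE 0.23) that ran between 0.070 and 0.67 when either PC9 array was left out.

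**Figure D2:**
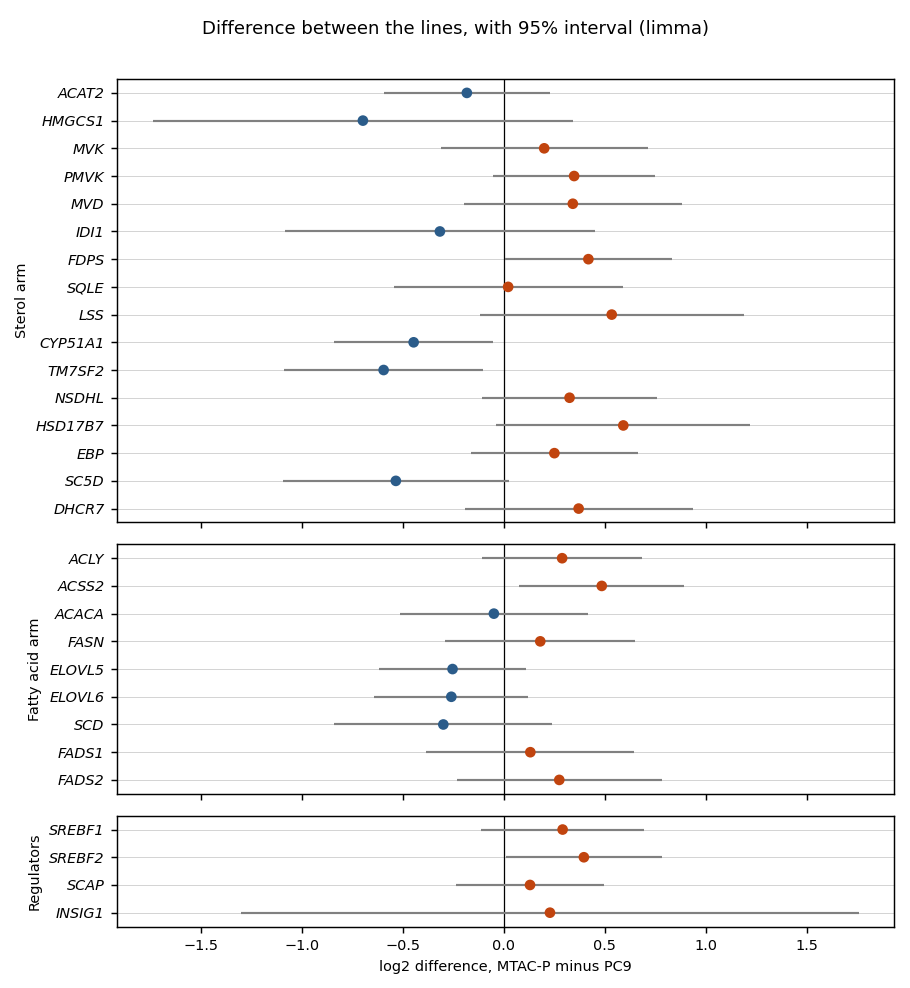
Log2 difference of MTAC-P minus PC9 for each member (points, orange where higher and blue where lower in MTAC-P) with limma's 95% interval (bars), 2 arrays per line. The intervals of CYP51A1, TM7SF2, FDPS, SREBF2 and ACSS2 exclude 0, and those of HMGCS1 and INSIG1 are the widest, with INSIG1 reaching from -1.30 to 1.76.

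In the fatty acid arm, both enzymes that make acetyl-CoA had higher means in MTAC-P and both elongases lower ones, with none of the 9 past the threshold over all genes. ACSS2, which makes acetyl-CoA from acetate, had log2 values of 6.93 and 7.01 in MTAC-P and 6.62 and 6.35 in PC9, a 1.40-fold difference. The lines were apart for ACSS2 by 0.48 (SE 0.17, limma adjusted p = 0.213), and its other, dimmer probe set differed by 0.069. ACLY, which makes acetyl-CoA from citrate, had 11.62 and 11.86 in MTAC-P and 11.47 and 11.44 in PC9. Both probe sets of ACLY were higher in MTAC-P, by 0.29 (SE 0.16) on the brightest and 0.53 on the other.

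ACACA, the carboxylase that makes malonyl-CoA, had log2 values of 9.15 and 9.24 in MTAC-P and 9.03 and 9.46 in PC9. The PC9 arrays enclosed those of MTAC-P, and the difference of -0.049 turned to 0.16 without PC9 replicate 2 and to 0.20 with the mean of its 3 probe sets. Apart from the brightest, these probe sets were near the dim value of 4.14, with means of 4.99 and 4.55. FASN, the fatty acid synthase, had 7.67 and 7.99 in MTAC-P and 7.49 and 7.80 in PC9. The lines overlapped for FASN, with a difference of 0.18 and an interval from -0.29 to 0.65.

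ELOVL5 and ELOVL6, elongases of polyunsaturated and of saturated and monounsaturated chains, were lower on both MTAC-P arrays. ELOVL5 had log2 values of 10.48 and 10.51 in MTAC-P and 10.74 and 10.76 in PC9. The duplicates of ELOVL5 lay within 0.032 of each other in both lines, so that its difference of -0.25 (SE 0.15), though small, exceeded both gaps. ELOVL6 had 6.79 and 6.95 in MTAC-P and 7.17 and 7.09 in PC9, a difference of -0.26 (SE 0.16), and its 3 probe sets lay between -0.48 and -0.070.

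SCD, the desaturase that makes monounsaturated fatty acids, had log2 values of 11.37 and 11.38 in MTAC-P and 11.97 and 11.38 in PC9. PC9 replicate 1 stood above the other 3 arrays, so the difference of -0.30 (SE 0.22) was -0.0021 without it. The 4 probe sets of SCD ranged from -0.30 to 0.49. FADS1 and FADS2, the desaturases of polyunsaturated fatty acids, lie next to each other on chromosome 11. FADS1 had 9.46 and 10.00 in MTAC-P and 9.63 and 9.57 in PC9, and FADS2 had 5.96 and 6.45 in MTAC-P and 6.04 and 5.82 in PC9. In both genes MTAC-P replicate 2 was the highest array and the lines overlapped, with differences of 0.13 (SE 0.21) for FADS1 and 0.27 (SE 0.21) for FADS2.

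The 29 members were covered by 73 probe sets. Of the 24 members with several probe sets above the dim value, 17 had 1 sign on all of them and 7 had mixed signs. The mixed ones were ACACA, CYP51A1, FADS2, SCD, SQLE, SREBF2 and TM7SF2. Mean levels of the probe sets with the other sign were 4.99 and 4.55 for ACACA and 4.40 for FADS2, near the dim value of 4.14. For the rest they were 7.89 for CYP51A1, 6.25 and 6.11 for SCD, 8.14 for SQLE, 5.51 for SREBF2 and 6.79 for TM7SF2. Agreeing probe sets could be dim too, the dimmest of SC5D having a mean of 4.34. Of the 17, SC5D, ELOVL5, ELOVL6, ACAT2, HMGCS1 and IDI1 had lower means in MTAC-P on these probe sets. FDPS, PMVK, LSS, EBP, ACLY, ACSS2, FADS1, INSIG1, MVK, SCAP and SREBF1 had higher ones. On the brightest probe set the lines overlapped for ACAT2, HMGCS1, IDI1, FADS1, INSIG1 and MVK. Probe sets of a gene were read from the same arrays, so their shared sign does not give those genes a direction between the lines. The brightest probe set ended in _x_at for ACAT2, CYP51A1, FADS2, HSD17B7, LSS and PMVK, whose levels may hold signal of similar sequences.

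**Figure D3:**
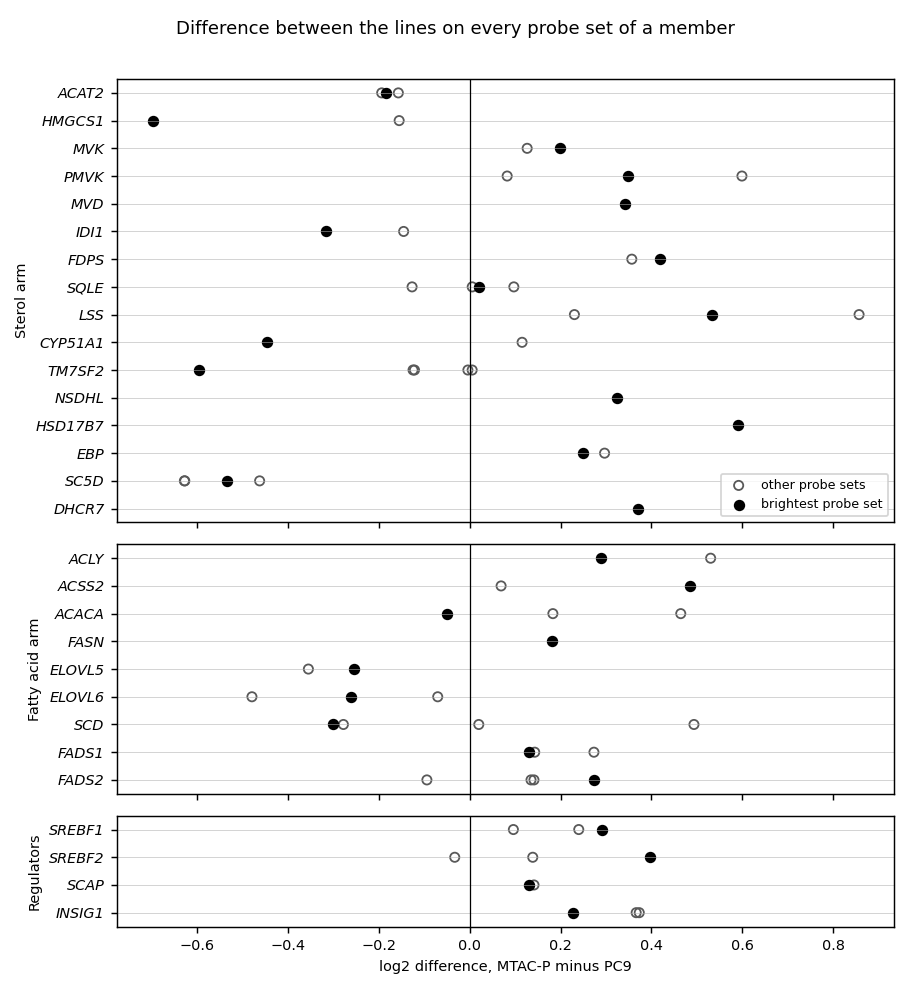
Log2 difference of MTAC-P minus PC9 on every probe set of each member, with the brightest probe set filled and the others open. The probe sets of SC5D lie together between -0.63 and -0.46, whereas those of SCD run from -0.30 to 0.49 and those of TM7SF2 from -0.60 to 0.0055.

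Arrays of the same line also differed in these genes. The median gap of the 29 members, without regard to sign, was 0.25 in MTAC-P and 0.21 in PC9, against 0.21 in MTAC-P and 0.17 in PC9 over all tested genes. The median size of the members' line difference was 0.30, against 0.22 over all tested genes. A line difference compares means of 2 arrays and a gap compares single arrays, so the 2 sizes are unlike measures. Between the MTAC-P duplicates, INSIG1 was 0.57 higher in replicate 1, HMGCS1 0.47 and IDI1 0.25. The probe sets of INSIG1 ran from -0.25 to 0.58 and those of HMGCS1 from -0.12 to 0.47, so both signs occurred, while both of IDI1 were positive. SQLE differed by -0.34, DHCR7 by -0.23 and SCD by -0.0057, with the probe sets of SCD between -0.36 and 0.36. Of the 29 members, 5 were at least 0.5 apart, namely LSS, SC5D, INSIG1, FADS1 and MVD, where 14.1% of all tested genes were. INSIG1 and SC5D were the ones higher in replicate 1, as were 7.13% of all tested genes. LSS at -0.78, FADS1 at -0.54 and MVD at -0.52 were lower in replicate 1. The value of 0.5 was chosen after the gaps were seen.

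The widest gaps between arrays of these genes lay within PC9. INSIG1 was 2.13 higher on the log2 scale in PC9 replicate 1 than in replicate 2, the 16th widest gap of all 14970 tested genes. HMGCS1 was 1.37 higher there, at rank 64, and IDI1 0.97 higher, at rank 207. HSD17B7 followed at 0.75, DHCR7 and SCD at 0.60 each and SQLE at 0.55. All 7 genes at least 0.5 apart were higher in PC9 replicate 1. Over all tested genes 9.47% were that far apart, and 4.68% were that far apart and higher in replicate 1. Below that size, 7 of the 29 members were lower in PC9 replicate 1. The widest of these gaps were -0.42 for ACACA, -0.32 for TM7SF2, -0.31 for FASN and -0.29 for MVD.

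HSD17B7 and DHCR7 had 1 probe set each, and the other 5 genes were higher in PC9 replicate 1 on every probe set. The gaps ranged from 0.93 to 2.13 on the 3 probe sets of INSIG1, from 0.87 to 1.37 on the 2 of HMGCS1 and from 0.97 to 1.32 on the 2 of IDI1. For SCD they ranged from 0.60 to 0.95 on 4 probe sets and for SQLE from 0.46 to 0.64 on 4. For SREBF2 they ranged from 0.19 to 0.46 on 3 probe sets and for SREBF1 from -0.012 to 0.19 on 3, and the brightest probe set of SCAP differed by -0.069.

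Replicate 1 was the higher array for 5 of 16 sterol genes in MTAC-P and 13 of 16 in PC9, and for 0 of 9 fatty acid genes in MTAC-P and 6 of 9 in PC9. These counts use the brightest probe sets. Other probe sets had MTAC-P gaps of up to 0.36 for SCD, 0.31 for FADS2, 0.061 for ACACA and 0.025 for ACSS2. Over all tested genes replicate 1 was higher for 47.2% in MTAC-P and 50.4% in PC9. By arm, the median of replicate 1 minus replicate 2 was -0.21 in MTAC-P and 0.16 in PC9 for sterol genes, and -0.16 in MTAC-P and 0.063 in PC9 for fatty acid genes. Across the 29 members the gaps of MTAC-P and of PC9 had a Pearson's r of 0.48, against 0.28 across all tested genes, where genes of the same arrays are not independent. INSIG1, HMGCS1 and IDI1, with the widest PC9 gaps, were also higher in MTAC-P replicate 1, by 0.57, 0.47 and 0.25. The r was not computed without them. Replicate 1 was higher for 6 of the 29 members in MTAC-P and 22 in PC9, so r does not describe a gap shared by most members. As a measure of RNA quality, the 3′ minus 5′ signal of the ACTB control was 1.51 and 1.75 in MTAC-P and 1.71 and 2.49 in PC9. For the GAPDH control it was -0.090 and -0.069 in MTAC-P and -0.057 and 0.038 in PC9. The part of RNA quality in the gaps was not tested.

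**Figure D4:**
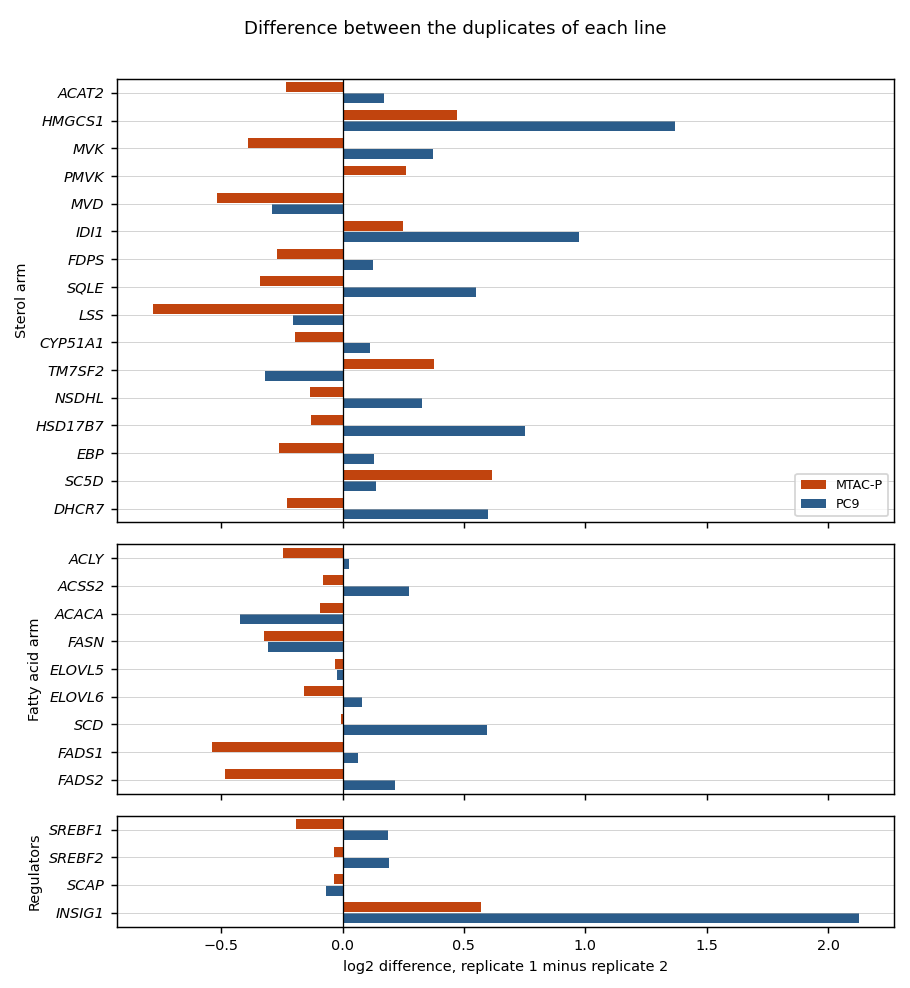
Log2 difference of replicate 1 minus replicate 2 within MTAC-P (orange) and within PC9 (blue) for each member. INSIG1, HMGCS1 and IDI1 reach 2.13, 1.37 and 0.97 in PC9. On their brightest probe sets the fatty acid genes all lie below 0 in MTAC-P, though SCD at -0.0057 and ELOVL5 at -0.032 are close to 0.

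Other genes of the pathways were read from 5 lists that hold 58 genes, of which 49 were tested and 0 passed limma's adjusted p of 0.05. Of the 49, 18 were higher and 31 lower in MTAC-P, where 53.8% of all tested genes were higher. At an unadjusted p under 0.05 there were 2 other sterol synthesis genes, 3 of sterol sensing and transport, 1 of the LXR list, 3 of fatty acid synthesis and 3 of carbon supply and glycerolipids, where 18.9% of all tested genes stood there. List medians were -0.11, -0.13, -0.11, -0.054 and -0.026 in the same order.

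In the list of other sterol synthesis genes, ACAT1, the mitochondrial thiolase, had the highest difference at 0.94 (SE 0.24, limma adjusted p = 0.137). The PC9 duplicates of ACAT1 were 0.67 apart. GGPS1, which draws isoprenoids toward geranylgeranyl diphosphate, had the lowest difference of that list at -0.43. In the list of sterol sensing and transport, NPC1, which releases cholesterol from lysosomes, was higher by 0.56. There MBTPS2, a protease that frees the SREBP factors, differed by -0.64 (SE 0.20, limma adjusted p = 0.174). In the list of LXR, the nuclear receptor of sterol excess, the receptor gene NR1H3 differed by 0.55 and the cholesterol exporter ABCA1 by -0.38.

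Around the fatty acid arm, the acyl-CoA synthetase ACSL5 had log2 values of 4.34 and 3.99 in MTAC-P and 5.97 and 5.59 in PC9. Its MTAC-P mean of 4.16 lay at the dim value of 4.14, so the size of its difference (-1.61, SE 0.21, limma adjusted p = 0.0971) is set by a level at background. ELOVL3 differed by 0.32 with overlapping arrays, and its values of 4.53 and 5.01 in MTAC-P and 4.26 and 4.63 in PC9 were all near the dim value. SLC25A1, which exports citrate from mitochondria for ACLY, was higher by 0.69 (SE 0.16, limma adjusted p = 0.124). Its probe set ended in _x_at, so its level may hold signal of similar sequences. GPAM, the first enzyme of glycerolipid synthesis, differed by -0.53. For genes of these lists, probe sets other than the brightest were not compared. Of the 10 genes named from these lists, the lines overlapped for ELOVL3. Naming the highest and lowest gene of a list favours genes whose arrays lie apart. Over all tested genes the arrays lay apart for 53.2%.

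**Figure D5:**
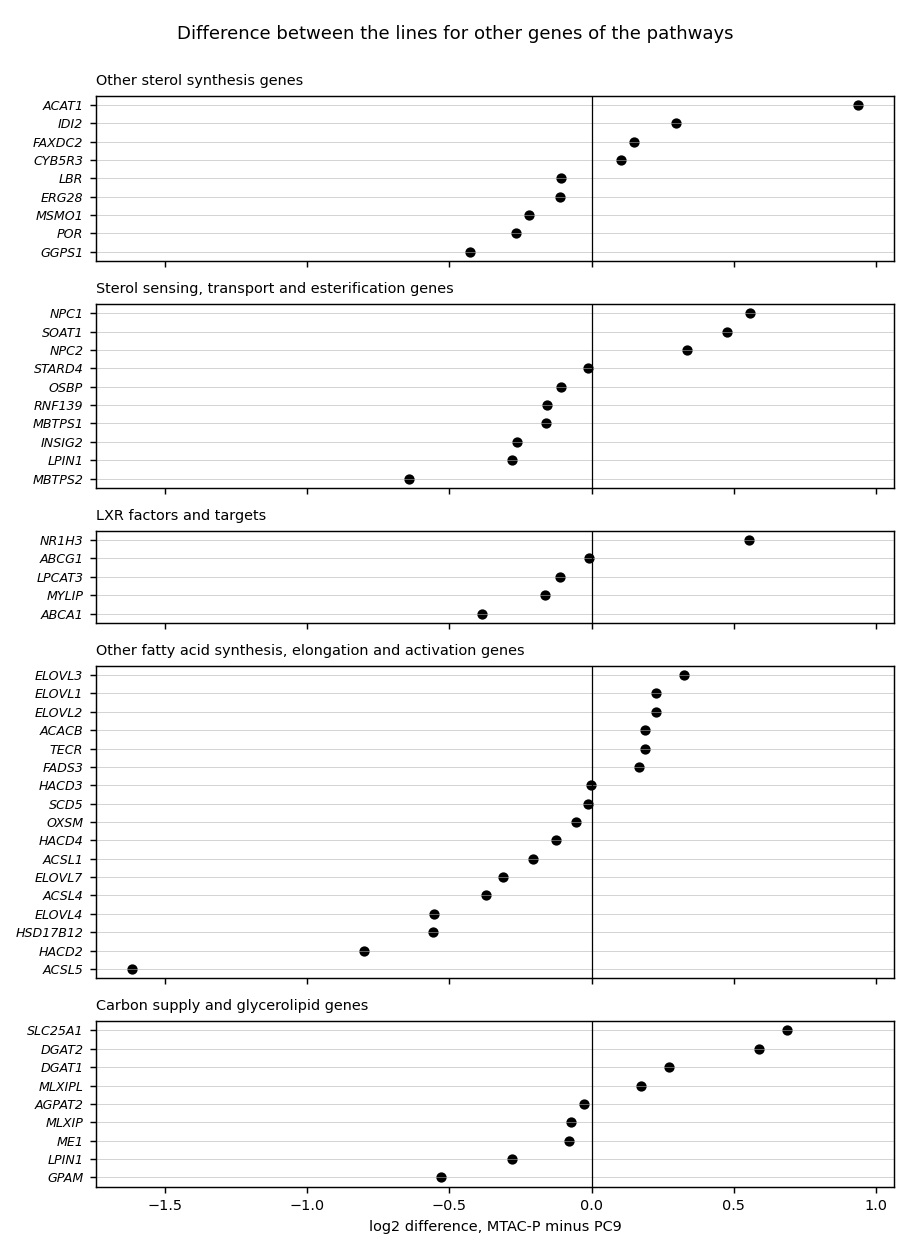
Log2 difference of MTAC-P minus PC9 for the 49 other tested genes in 5 lists, 1 point per gene, with LPIN1 in 2 lists. ACSL5 lies farthest to the left at -1.61, with its MTAC-P level at the dim value, and ACAT1 farthest to the right at 0.94.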

How the data were processed

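The authors deposited 1 value per probe set and array. The values (3.32 to 14.6) were read as log2 from their range, and the authors' normalization is not given in the sources used here. Agilent Feature Extraction 10.7 is named per the submitters' processing notes, while the probe-set names follow Affymetrix conventions. Of 49386 probe sets, 1327 carried several symbols and were not used. Each of 18239 genes was read from its brightest probe set. The dim value, 4.14, was the 25th percentile of probe-set means, and 3269 genes below it were left out.

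The 14970 remaining genes were fitted in R 4.3.3 with limma 3.58.1 (lmFit, eBayes, 2-sided tests, Benjamini-Hochberg adjustment), a step tested on simulated data. Over 20 simulations with 200 changed genes each, 21.0% of genes changed by a log2 of 1 and 94.5% of those changed by 2 passed. Wrong calls averaged 6.2 per simulation. The largest member difference was -0.70, so members that did not pass may still differ. The SEs, intervals and p-values use eBayes variances, which draw each gene's spread toward that of all tested genes. Precision is limited by having 2 arrays a line, for which an exact permutation test has a smallest p of 0.333.

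Members and lists were chosen with earlier results of these data known. All 29 members are named, and of each other list its highest and lowest gene. Alternatives were median centring, quantile normalization, other dim filters (none, 50th percentile), averaging a gene's probe sets, a variance trend, the replicate number as a block, a pseudocount of 16 on linear values and leaving out each array. Counts of higher members under them were added after seeing the data. Figures used Python 3.11.15 and matplotlib 3.10.9.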

Additional observations from a re-analysis of the deposited data

How the results depend on the processing

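The 3 genes past limma's threshold became 1 with the 50th percentile filter, 1 with the pseudocount of 16, 0 when probe sets were averaged and 77 with a variance trend. They ranged from 0 to 68 when 1 array was left out. With the replicate number as a block 2079 genes passed, among them HMGCS1, HSD17B7 and TM7SF2. The labels do not say that a number pairs the lines, and with 2 pairs the correlation of same-numbered arrays, 0.28, cannot settle it. Leaving out 1 array moved the fatty acid median between -0.095 and 0.34 and that of the regulators between 0.18 and 0.44. The sterol median stayed between 0.042 and 0.31 in these settings. Across the same settings ACACA ranged from -0.26 to 0.16, FADS1 from -0.14 to 0.40, IDI1 from -0.80 to 0.17, INSIG1 from -0.84 to 1.29 and SQLE from -0.25 to 0.30. With averaged probe sets ACACA was 0.20 and SQLE -0.00065, against -0.049 and 0.021. The cause of these changes was not tested. The other 24 members kept their sign in all settings. Counts of higher members stayed within 1.5 times. The medians of the duplicate gaps kept their sign, but under quantile normalization that of the regulators was -0.074 in MTAC-P and 0.11 in PC9, and that of the fatty acid genes 0.0021 in PC9. With averaged probe sets that of the sterol genes was -0.14 in MTAC-P and 0.23 in PC9, and that of the regulators -0.086 in MTAC-P.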

Other observations

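Among genes outside the 30, LPIN1, a lipid phosphatase gene regulated by SREBP, had log2 values of 7.74 and 7.36 in MTAC-P and 8.50 and 7.16 in PC9. Its PC9 gap of 1.34 ranked 73rd of all tested genes, with the higher level in replicate 1. LPIN1 is in 2 lists. In PC9, replicate 1 was higher for 5 of 10 tested genes of sterol sensing and transport. It was higher for 2 of 9 of carbon supply and glycerolipids. In the list of LXR genes, the log2 difference of replicate 1 minus replicate 2 in MTAC-P was -0.60 for ABCG1, 0.18 for ABCA1, -0.65 for MYLIP, -0.039 for LPCAT3 and -0.13 for NR1H3. In PC9 it was -0.69 for ABCG1, -0.52 for ABCA1, -0.47 for MYLIP, -0.0083 for LPCAT3 and 0.53 for NR1H3. The log2 values of ABCG1, 4.53 and 5.13 in MTAC-P and 4.49 and 5.18 in PC9, were near the dim value of 4.14. LPIN1 and this list were picked after their values were seen.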
